A study of Mus musculus with 12 samples.

Results

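The miR-15 and miR-16 family was described in the small RNA of exosomes released by mouse granulosa cells, the steroid-producing cells that surround the oocyte. Its members were taken by name from the deposited count tables, and all 5 listed members, mmu-miR-15a-5p, mmu-miR-15b-5p, mmu-miR-16-5p, mmu-miR-195a-5p and mmu-miR-497a-5p, were among the 637 entries. There were 12 libraries in 4 groups of 3. Cells of the CON group were left untreated. Ferric citrate, a salt that supplies iron, was given at 100 μM to the FAC, DFO and VE groups. The DFO group was also given deferoxamine mesylate, which binds iron, at 100 μM. The VE group was also given VITE, the lipid-soluble antioxidant vitamin E, at 200 μM. All cells were first kept for 24 h in medium free of exosomes and then cultured for 48 h, after which exosomes were collected by stepwise centrifugation. According to the methods of the study, the granulosa cells came from the ovaries of Kunming mice injected with gonadotropin from pregnant horse serum, and the cell suspension was strained and spun but not sorted by a marker. The labels do not say whether the replicates were separate cultures or animals, so the p-values below measure only the spread between these libraries, which may be technical.

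A microRNA guides the silencing machinery to messenger RNAs that pair with its seed, the short stretch near its 5′ end. miR-15 and miR-16 are made from paired hairpins and are known for holding back the cell cycle and the survival factor Bcl2, and miR-195 and miR-497 carry the same seed from a second genomic cluster. miR-16 is abundant in many tissues and in red blood cells, and is often used as a reference in body fluids. In the ovary, granulosa cells divide rapidly as the follicle grows. The comparisons asked whether the family's level in exosomes differed when the cells were loaded with iron, and when a chelator or an antioxidant was added.

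The mature sequences, printed 5′ to 3′ from RefSeq with the seed in capitals (bases 2 to 8), are shown because the shared seed defines the family and because the near-identity of some members bears on how reads could be assigned.
mmu-miR-15a-5p: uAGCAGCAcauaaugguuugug
mmu-miR-15b-5p: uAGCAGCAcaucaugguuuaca
mmu-miR-16-5p: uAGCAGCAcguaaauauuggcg
mmu-miR-195a-5p: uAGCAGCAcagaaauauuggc
mmu-miR-497a-5p: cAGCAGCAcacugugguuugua
mmu-miR-503-5p: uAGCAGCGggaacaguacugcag

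All 5 members had the same seed. mmu-miR-15a-5p, mmu-miR-15b-5p and mmu-miR-195a-5p shared their first 9 bases with mmu-miR-16-5p, and mmu-miR-497a-5p differed from it at the first base. mmu-miR-195a-5p was the closest to mmu-miR-16-5p, with the same base at 19 of its 21 positions. How mismatches were treated is not given in the sources used here, so the split of reads between these entries is uncertain. For mmu-miR-15a-5p, mmu-miR-15b-5p and mmu-miR-497a-5p the same count was 16, 14 and 11 positions. mmu-miR-503-5p is often placed beside the family, but the last base of its seed differs, and it was not counted as a member. RefSeq listed 10 mature mouse miRNAs with this seed. The other 5 of them, mmu-miR-195b, mmu-miR-322-5p, mmu-miR-6342, mmu-miR-6353 and mmu-miR-6419, were not among the entries and were not analysed here.

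In the GRCm38.p6 build used by RefSeq, mmu-miR-15a-5p lies at chr14:61632075-61632096 and a first copy of mmu-miR-16-5p at chr14:61631936-61631957, both on the minus strand. Their hairpins, Mir15a and Mir16-1, lie within an intron of the long non-coding RNA gene Dleu2. mmu-miR-15b-5p lies at chr3:69009775-69009796 and the other copy of mmu-miR-16-5p at chr3:69009918-69009939, both on the plus strand, and their hairpins, Mir15b and Mir16-2, lie within an intron of Smc4, a protein-coding gene for a condensin subunit. Since both copies give the same mature sequence, the locus of a mmu-miR-16-5p read cannot be told apart. mmu-miR-195a-5p lies at chr11:70235062-70235082 and mmu-miR-497a-5p at chr11:70234730-70234751, both on the plus strand. Neither overlaps a gene of GENCODE M21 other than miRNA genes. The mature mmu-miR-497b lies at chr11:70234763-70234786 on the minus strand, near mmu-miR-497a-5p but not over it. The count tables hold no coordinates. The labels name the mm9 build for the processing, and no position was converted between builds.

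The libraries held between 452021 and 7565362 miRNA counts, which were between 2% and 30.5% of the library read totals. Counts were normalized to counts per 1000000 (CPM) of all miRNA counts with TMM factors. A level of 3 counts was taken as the floor of each library, and it corresponded to between 0.351 CPM in FAC replicate 1 and 7.9 CPM in CON replicate 2. The 95% Wilson intervals given below, like these floors, account for counting error alone, because reads copied by amplification are not separate molecules. Between 25.3% and 43.8% of the 637 entries were over the floor in 10 libraries, against 57% in FAC replicate 1 and 67.3% in FAC replicate 2.

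The family was a small fraction of the exosomal miRNA. Over the 12 libraries its 5 members summed to 680 of 38557615 counts, or 17.6 counts per 1000000 miRNA counts. mmu-miR-16-5p made up 51.3% of these counts and mmu-miR-15b-5p 43.8%. This weights the deeper libraries more. With each library weighted equally, the 2 members were at a like level, with a mean over the 12 libraries of 5.48 CPM for mmu-miR-16-5p and 5.59 CPM for mmu-miR-15b-5p. By total counts, 263 entries stood above mmu-miR-16-5p and 282 above mmu-miR-15b-5p.

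The members' counts fell into separate ranges. Of the 60 values (5 members in 12 libraries), 40 were 0, 13 were 1 or 2, none lay between 3 and 29, and the remaining 7 lay between 30 and 189. These 7 values were in 4 libraries: FAC replicates 1 and 2, DFO replicate 1 and VE replicate 1. No CON library held more than 2 counts of any member.

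mmu-miR-16-5p had 0, 1 and 2 counts in CON replicates 1 to 3 and 83, 189 and 2 counts in the FAC replicates. It had 65, 2 and 0 counts in the DFO replicates and 1, 2 and 2 counts in the VE replicates. In normalized units the 3 high libraries were FAC replicate 2 with 25.2 CPM (95% interval 21.9 to 29.1), DFO replicate 1 with 22.4 CPM (17.6 to 28.5) and FAC replicate 1 with 9.72 CPM (7.84 to 12). The intervals of FAC replicate 2 and DFO replicate 1 overlapped, and that of FAC replicate 1 lay below both. Relative to the library read total (RPM), DFO replicate 1 was instead the lowest of the 3. FAC replicate 2 had 7.84 RPM, FAC replicate 1 had 3.34 and DFO replicate 1 had 2.67. The other 9 libraries were under their floors, with the highest value at 3.14 CPM (0.862 to 11.5) in CON replicate 3, an interval that overlaps that of FAC replicate 1. Between 170 and 288 entries stood above mmu-miR-16-5p within a library.

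The group means of mmu-miR-16-5p were 1.93 ± 1.69 CPM in CON, 11.8 ± 12.5 in FAC, 7.58 ± 12.8 in DFO and 0.603 ± 0.14 in VE (SD, n = 3 each). In FAC and DFO the SD was larger than the mean, and the groups overlapped, since the lowest FAC library had 0.406 CPM and 2 DFO libraries had 0.359 and 0 CPM.

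mmu-miR-15b-5p had 1, 0 and 1 counts in the CON replicates and 121, 90 and 0 counts in the FAC replicates. It had 0, 0 and 1 counts in the DFO replicates and 82, 2 and 0 counts in the VE replicates. The high libraries were VE replicate 1 with 37 CPM (29.8 to 46), FAC replicate 1 with 14.2 CPM (11.9 to 16.9) and FAC replicate 2 with 12 CPM (9.78 to 14.8). Relative to the library read total (RPM) the order was turned, with 4.87, 3.73 and 3.39 RPM in FAC replicate 1, FAC replicate 2 and VE replicate 1. The group means were 0.797 ± 0.786 CPM in CON, 8.73 ± 7.64 in FAC, 0.25 ± 0.433 in DFO and 12.6 ± 21.2 in VE (SD, n = 3 each). The FAC and VE groups each held a library at 0.

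The 2 leading members did not appear in the same libraries throughout. FAC replicates 1 and 2 held both, with mmu-miR-15b-5p the higher in replicate 1 (121 against 83 counts) and mmu-miR-16-5p the higher in replicate 2 (189 against 90). DFO replicate 1 held 65 counts of mmu-miR-16-5p and 0 of mmu-miR-15b-5p. VE replicate 1 held 82 counts of mmu-miR-15b-5p and 1 of mmu-miR-16-5p.

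mmu-miR-497a-5p had 30 counts in FAC replicate 2, or 4.01 CPM (2.81 to 5.72), and 0 in the other 11 libraries. At that level, CON replicates 1 to 3 would have held 4.89, 1.52 and 2.55 counts, so in CON replicates 2 and 3 such a level lay under the floor and was not detectable at this depth. mmu-miR-195a-5p had 2 counts in VE replicate 3 and 0 elsewhere, and mmu-miR-15a-5p had 1 count in VE replicate 3 and 0 elsewhere. Both were under the floor in all 12 libraries. At the CPM of FAC replicate 2, the CON replicates would have held 30.8, 9.59 and 16.1 counts of mmu-miR-16-5p and 14.7, 4.57 and 7.64 counts of mmu-miR-15b-5p. At the CPM of FAC replicate 1, they would have held 11.9, 3.69 and 6.18 counts of mmu-miR-16-5p and 17.3, 5.38 and 9.01 counts of mmu-miR-15b-5p, so in CON replicate 2 these levels lay close to the floor.

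**Figure D1:**
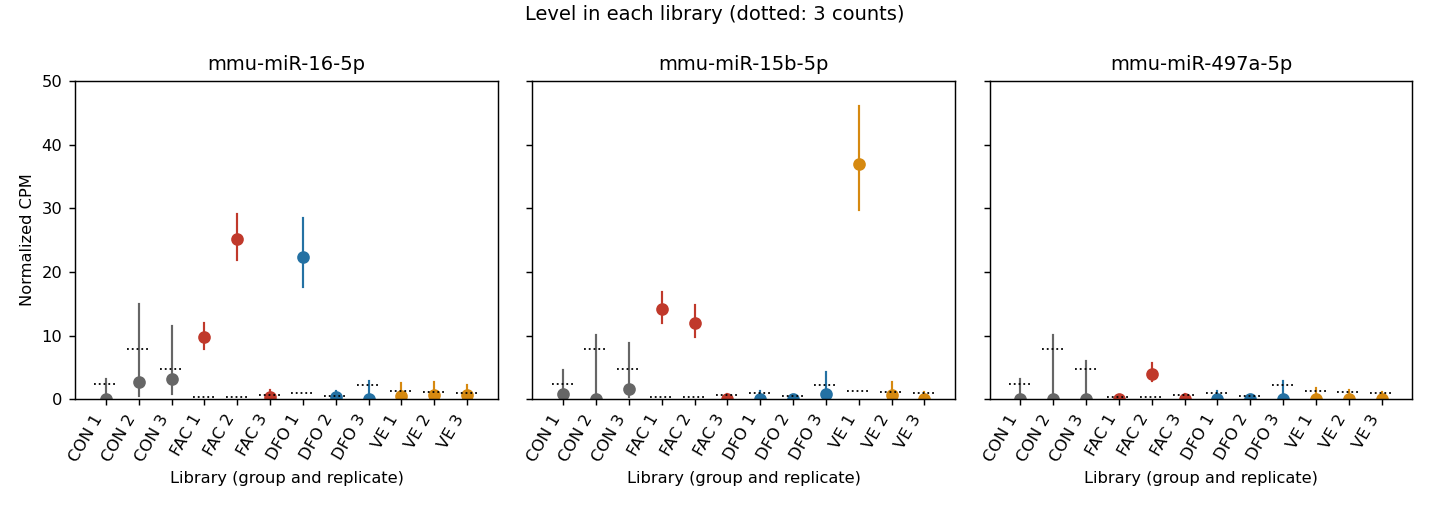
Normalized CPM (y axis) of mmu-miR-16-5p, mmu-miR-15b-5p and mmu-miR-497a-5p in each of the 12 libraries (x axis, coloured by group), with 95% Wilson intervals as bars and the floor of 3 counts as a dotted line. A reader should see that mmu-miR-16-5p stands over the floor in FAC replicates 1 and 2 and DFO replicate 1, mmu-miR-15b-5p in FAC replicates 1 and 2 and VE replicate 1, and mmu-miR-497a-5p in FAC replicate 2 alone.

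FAC replicates 1 and 2 together held 75.4% of the family's counts and 33.2% of all miRNA counts. Summed over the 5 members, FAC replicates 1 to 3 held 27, 59.2 and 0.37 family counts per 1000000 miRNA counts. DFO replicate 1 held 21.4 and VE replicate 1 held 37.3, and the other 7 libraries were between 0.41 and 4.28. FAC replicates 1 and 2 were also the libraries with the most entries over the floor, 363 and 429, where the others had between 161 and 279. DFO replicate 1 and VE replicate 1 had 245 and 226, within the range of the others. The part of this difference in the family's counts was not tested.

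Occurrence in few libraries was common among the entries. Over all 637 entries the median number of libraries over the floor was 3, and over the 547 tested entries it was 4. It was 3 for mmu-miR-16-5p and for mmu-miR-15b-5p. In all, 357 entries (56%) were over the floor in 3 libraries or fewer, or 267 (48.8%) of the tested entries, and 124 entries were over it in all 12. Counts between 10 and 500 were also smoothed on the log2 scale within each library. The highest peak lay at 58.7 counts in FAC replicate 1 and 20.2 in FAC replicate 2. It lay at 140 counts in DFO replicate 1 and 98.1 in VE replicate 1. Beside these stood the members' own counts of 83 and 121, of 30, 90 and 189, of 65 and of 82 in the same order of libraries. Counts under 10 were left out of the smoothing, so these peaks do not show how many entries lay near 1. In these libraries, 402, 475, 329 and 296 entries had a count, again in the same order. Of them, 363, 429, 245 and 226 were over the floor. Whether the members' values followed these peaks was not tested.

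**Figure D2:**
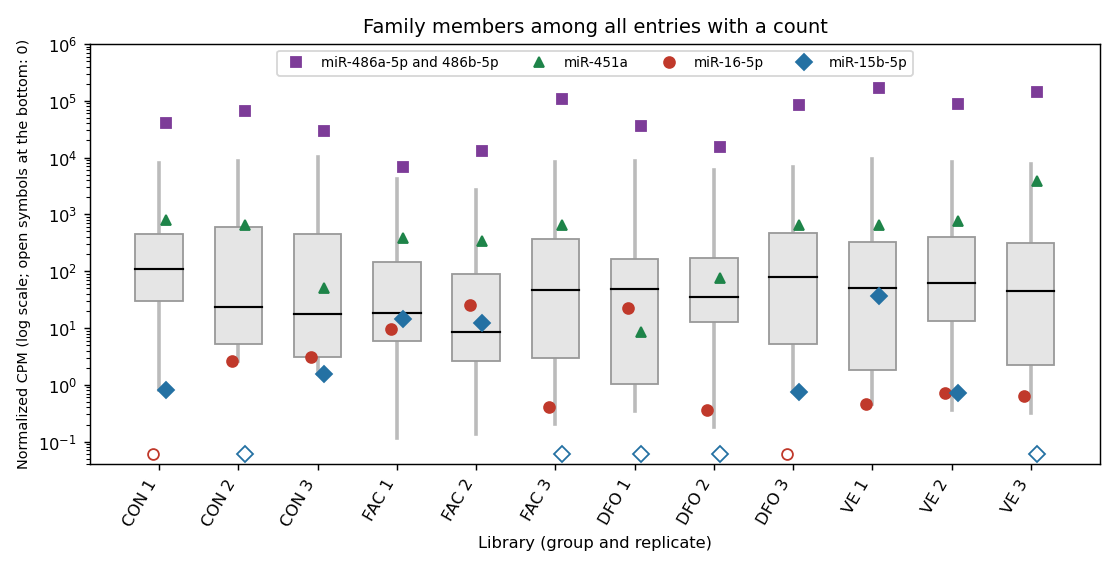
Normalized CPM (y axis, log scale) of mmu-miR-16-5p, mmu-miR-15b-5p, miR-451a and the entry that joins miR-486a-5p and miR-486b-5p in each library (x axis), over all entries with a count (box: middle 50%, line in the box: median, grey bar: middle 90%), with open symbols at the bottom for 0 counts. A reader should see both members above the library's median entry only in FAC replicate 2, with mmu-miR-16-5p at 25.2 CPM against a median of 8.41, and miR-451a above both members in every library but DFO replicate 1, where it was at 8.61 CPM against 22.4 for mmu-miR-16-5p.

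The comparison of FAC with CON asked about iron loading. Of the 5 members, 3 had at least 10 counts over the 12 libraries and could be tested (mmu-miR-15b-5p, mmu-miR-16-5p and mmu-miR-497a-5p). With edgeR's quasi-likelihood test, 0 of these 3 were called at a Benjamini-Hochberg adjusted p under 0.05, where 0.183% of the 547 tested entries were. By the looser rule of a 1.5-fold change with an unadjusted p under 0.05, 0 of the 3 passed, where 9.51% of all tested entries did. On the log2 scale mmu-miR-15b-5p differed by 3.33 with a standard error of 3.63 (adjusted p = 0.616) and mmu-miR-16-5p by 2.64 with a standard error of 3.52 (adjusted p = 0.683), FAC minus CON, and each standard error was larger than its difference. Scaled to library read totals, the differences were 6.46 for mmu-miR-15b-5p (adjusted p = 0.239) and 6.33 for mmu-miR-16-5p (adjusted p = 0.233). With TMM factors, the difference of 2.64 for mmu-miR-16-5p became 1.58 without FAC replicate 2. For mmu-miR-497a-5p, at 0 in all CON libraries, the adjusted p was 0.607, and no fold is given. The median difference over all 547 tested entries was 1.38 on the log2 scale with TMM factors and 4.35 with library read totals.

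Counting error alone gave narrower limits than the replicates did. Summed within groups, mmu-miR-15b-5p had 211 counts in FAC and 2 in CON, a ratio of normalized levels of 11.3 (95% exact interval 3.08 to 93.6). mmu-miR-16-5p had 274 and 3, a ratio of 9.75 (3.3 to 47.6). These intervals treat the 3 libraries of a group as 1 pool, and the standard errors of the fit, which include the spread between libraries, were larger than the fitted differences.

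The comparison of DFO with FAC asked about adding the chelator to iron. mmu-miR-15b-5p was over the floor in 2 of 3 FAC libraries and in 0 of 3 DFO libraries. Its log2 difference, DFO minus FAC, was -5.17 with a standard error of 3.89 (adjusted p = 0.458), where the median of all tested entries was -0.66. mmu-miR-16-5p differed by -0.63 with a standard error of 3.24 (adjusted p = 0.953). Its direction rested on single libraries, and the difference was 0.63 without FAC replicate 2 and -5.63 without DFO replicate 1. The adjusted p of mmu-miR-497a-5p was 0.458. Of the 3 tested members, 0 were called at an adjusted p under 0.05 (0.914% of all tested entries) and 0 by the looser rule (12.2% of all tested entries).

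The comparison of VE with FAC asked about adding the antioxidant to iron. mmu-miR-16-5p was under the floor in all 3 VE libraries and differed from FAC by -4.21 on the log2 scale with a standard error of 3.67 (adjusted p = 0.548), where the median of all tested entries was -0.63. mmu-miR-15b-5p differed by 0.52 with a standard error of 3.23 (adjusted p = 1). Of its 84 counts in VE, 82 were in replicate 1, and the difference was -4.47 without that library. It was -0.23 without FAC replicate 3, where mmu-miR-15b-5p had no count. The adjusted p of mmu-miR-497a-5p was 0.521. Of the 3 tested members, 0 were called at an adjusted p under 0.05 (0.366% of all tested entries) and 0 by the looser rule (9.32% of all tested entries). DESeq2, run as an alternative, put mmu-miR-16-5p past the looser rule in this comparison (log2 difference -4.48, unadjusted p = 0.03, adjusted p = 0.224).

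The comparisons of DFO and VE with CON asked whether the treated cells with an added agent differed from untreated cells, and they share the CON libraries with the comparison of FAC and CON. mmu-miR-16-5p differed between DFO and CON by 2.01 on the log2 scale with a standard error of 3.45 (adjusted p = 0.939), and all of its DFO level over the floor came from replicate 1. mmu-miR-15b-5p differed between VE and CON by 3.85 with a standard error of 3.71 (adjusted p = 0.674), again with a single library, VE replicate 1, over the floor. For mmu-miR-15b-5p in DFO and CON and for mmu-miR-16-5p in VE and CON, both groups were under the floor, and no fold is given. mmu-miR-497a-5p had 0 counts in CON, DFO and VE, so it could not be called. In each of these comparisons a single member was thus over the floor in any library, and the calls below rest on it. In DFO against CON, 0 of the 3 tested members were called at an adjusted p under 0.05 (0.548% of all tested entries) and 0 by the looser rule (7.68%). In VE against CON, the same counts were 0 (2.01% of all tested entries) and 0 (10.4%). The median difference over all tested entries was 0.00 in both comparisons.

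**Figure D3:**
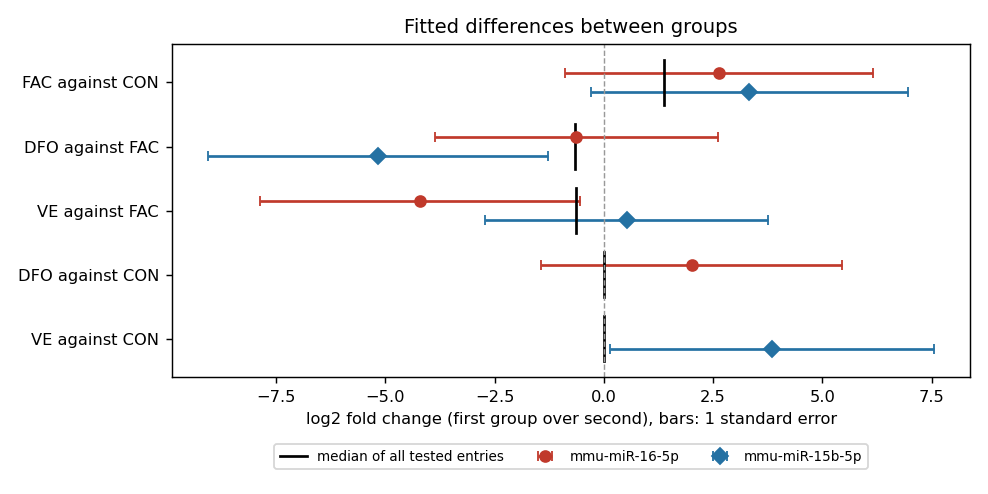
Fitted log2 fold change (x axis, first group over second) of mmu-miR-16-5p and mmu-miR-15b-5p in the 5 comparisons (y axis), with bars of 1 standard error and a black line at the median of all tested entries, leaving out pairs of groups that were both under the floor. A reader should see bars of more than 3 log2 units on each side of every point, and that the points farthest from 0 are mmu-miR-15b-5p in DFO against FAC at -5.17 and mmu-miR-16-5p in VE against FAC at -4.21.

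The spread between replicates was wide for these tests. The common biological coefficient of variation was 1.57, and the standard errors of the 2 leading members ran from 3.23 to 3.89 on the log2 scale. A p that misses the threshold here does not show that the groups had the same level.

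The opposite arms of the hairpins, which are usually the less stable strands, were also sparse. They are shown because their reads do not share the seed of the family and can be assigned apart from it. The capitals again mark bases 2 to 8.
mmu-miR-15b-3p: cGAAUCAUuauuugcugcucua
mmu-miR-16-1-3p: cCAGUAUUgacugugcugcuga
mmu-miR-16-2-3p: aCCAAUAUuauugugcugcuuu
mmu-miR-195a-3p: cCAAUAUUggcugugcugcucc

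Of the 60 values of 5 such arms, 45 were 0, 9 were 1 or 2, and 6 were higher. mmu-miR-195a-3p had 44 counts in FAC replicate 2 and 196 in FAC replicate 3, or 5.88 and 39.8 CPM, and at most 1 count in any other library. Its 5′ partner, mmu-miR-195a-5p, had 0 counts in both. mmu-miR-16-2-3p had 44 counts in FAC replicate 1 and 102 in VE replicate 3, or 5.15 and 32.1 CPM, and at most 1 count elsewhere. In VE replicate 3 mmu-miR-16-5p had 2 counts, fewer than this arm, and in FAC replicate 1 it had 83, more than this arm. mmu-miR-16-1-3p had 29 counts and mmu-miR-15b-3p had 24 counts in FAC replicate 2, with at most 1 elsewhere. There mmu-miR-15b-5p had 90 counts. mmu-miR-15a-3p had 2 counts in DFO replicate 2 alone.

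The 3′ arms of Mir16-1 and Mir16-2 differ in sequence, so their own reads can be told apart by locus. They do not show which locus gave the mmu-miR-16-5p reads. The sequences of mmu-miR-16-1-3p and mmu-miR-195a-3p are also close, so with the treatment of mismatches unknown their split is uncertain. In FAC replicate 2 the arm of Mir16-1 had 29 counts and that of Mir16-2 had 1, and in FAC replicate 1 they had 0 and 44. Of the 5 arms, 4 had enough counts to be tested, and mmu-miR-15a-3p was not tested. None of the 4 was called in any of the 5 comparisons at an adjusted p under 0.05 or passed the looser rule, where between 0.183% and 2.01% of all tested entries were called and between 7.68% and 12.2% passed the looser rule. mmu-miR-15b-3p had 0 counts in CON, DFO and VE, and mmu-miR-16-1-3p in CON and DFO, so neither could be called between those groups. The smallest p among the arms was that of mmu-miR-195a-3p in VE against FAC (unadjusted p = 0.0504, adjusted p = 0.521). That arm had 0 counts in all VE libraries. mmu-miR-497b, added to the named entries after its counts were seen, is encoded on the strand opposite the Mir497 hairpin and had 44 counts in FAC replicate 1 and 0 elsewhere. Whether the counting used strand is not given in the sources used here.

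**Figure D4:**
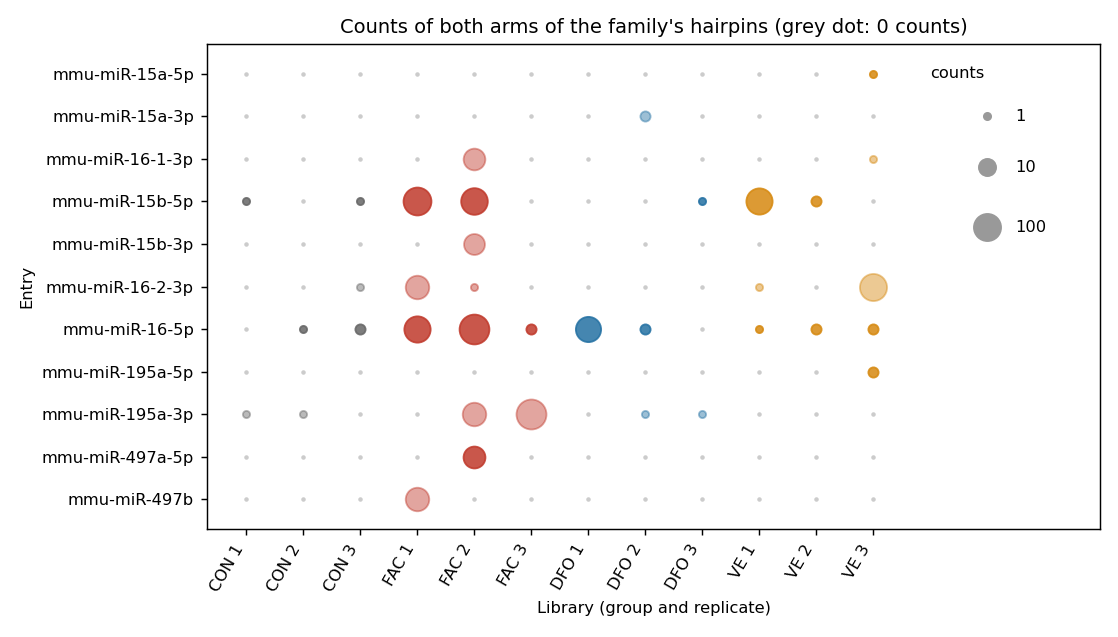
Counts of the 5′ arms (full colour) and of the 3′ arms and mmu-miR-497b (pale) by library (x axis) and entry (y axis), with the diameter of each disc rising with the log10 of the count and a small grey dot for 0. A reader should see that each entry has large discs in 3 libraries at most, such as 196 counts of mmu-miR-195a-3p in FAC replicate 3 and 102 of mmu-miR-16-2-3p in VE replicate 3, and that FAC replicate 2 holds the most of them.

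mmu-miR-503-5p, made from an X-linked cluster, was higher than the members in most libraries. It had 346, 137 and 6 counts in CON, 1673, 1243 and 218 in FAC, 10, 199 and 0 in DFO and 108, 199 and 0 in VE. It passed the looser rule in DFO against FAC (log2 difference -3.36, standard error 1.47, adjusted p = 0.273) and in DFO against CON (-4.04, standard error 1.51, adjusted p = 0.373), and was called in neither at an adjusted p under 0.05.

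The entries most like mmu-miR-16-5p were sought among 102 entries with at least 10 counts in every library, as the smallest root-mean-square difference in centred log2 CPM over the 12 libraries. These were mmu-miR-1839-5p at 1.62, mmu-miR-27b-3p at 1.66 and mmu-miR-3074-5p at 1.70. The median of the candidates was 2.18, and the SD of mmu-miR-16-5p itself over the libraries was 1.96. mmu-miR-16-5p did not have 10 counts in every library, so entries with its pattern of counts were left out of the candidates. The distances thus cannot show whether any entry outside the candidates followed it.

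Markers of other cell types were set beside these values. Of 5 erythroid miRNAs named, mmu-miR-144-5p was absent and the others were held in 3 entries. The summed level of these 3 was between 29612 and 65682 CPM in CON, 7286 and 107051 in FAC, 15426 and 85822 in DFO, and 89347 and 169596 in VE. mmu-miR-144-3p was at 0 in CON, FAC and VE. Nearly all of the sum was the entry joining miR-486a-5p and miR-486b-5p, which had 6903 CPM in FAC replicate 1, 13073 in FAC replicate 2, 106408 in FAC replicate 3, 36701 in DFO replicate 1 and 168935 in VE replicate 1. Among the 4 libraries with family members over the floor, it was thus lowest of all 12 libraries in FAC replicates 1 and 2 and highest of all in VE replicate 1. miR-451a, a red-cell miRNA, was at 383, 335, 8.61 and 662 CPM in FAC replicates 1 and 2, DFO replicate 1 and VE replicate 1, where the other libraries lay between 50.3 and 3798 CPM.

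The leukocyte and platelet list (4 of 4 entries) summed to between 18.4 and 315 CPM in CON, 5.86 and 98.5 in FAC, 17.2 and 367 in DFO, and 1.81 and 228 in VE. Most of this sum was mmu-miR-150-5p in every library. mmu-miR-223-3p was at 0 in CON, DFO and VE, and mmu-miR-142a-3p in CON, FAC and DFO. The stromal and theca list (4 of 4 entries) summed to between 31032 and 109235 CPM in CON, 37294 and 66655 in FAC, 23881 and 44044 in DFO, and 14034 and 20803 in VE. Nearly all of this sum was mmu-miR-143-3p, such as 108429 CPM in CON replicate 1, so it does not show the levels of the other entries. The epithelial list (5 of 5 entries) summed to between 0 and 225 CPM in CON, 0.203 and 18.5 in FAC, and 0 and 16.1 in DFO. It was at 0 in VE. In CON its entries were over the floor in replicate 1 alone. There mmu-miR-429-3p had 95.8 CPM, against 0 in CON replicates 2 and 3. The granulosa-associated list, whose miRNAs are not exclusive to that cell type, had 4 of 5 as entries and summed to between 951 and 3385 CPM over the 12 libraries, with mmu-miR-212-3p at 0 in CON, DFO and VE. Most of this sum was mmu-miR-21a-5p in every library. The part of these cell types in the family's values was not tested, and in such bulk samples fewer exosomes of one source and less of a miRNA per exosome cannot be told apart.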

How the data were processed

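Small RNA of exosomes was sequenced by the authors on a HiSeq instrument, with reads of 15 to 41 bases. For each of 12 libraries the authors deposited whole-number counts per miRNA entry and the same values as RPM, scaled to a library read total, which their files call TPM. Each count divided by its RPM gave that total. The labels name mm9. The aligner, miRNA database and treatment of reads with several matches are not given in the sources used here. The members and lists were chosen with earlier results of these data known.

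Counts were tested with edgeR 4.0.16 in R 4.3.3 (quasi-likelihood test, TMM factors, 4 groups in 1 fit) for 547 of 637 entries, those whose 12 libraries summed to 10 counts or more. Standard errors are the log2 difference over the square root of F. A call was a Benjamini-Hochberg adjusted p under 0.05 over all tested entries. The second rule, a 1.5-fold change with an unadjusted p under 0.05, follows the study's stated thresholds. Alternatives were DESeq2 1.42.0, RLE factors, total counts, library read totals, no filter, a replicate block and leaving out each library. No 2 libraries agreed within sampling noise (chi-square per degree of freedom at least 155.7 over 66 pairs).

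Named entries were the 5 members, the 3′ arms of their hairpins, entries with the same seed, mmu-miR-503-5p, the marker lists, and the 3 entries most like the member with the most counts. The last were taken only among entries with at least 10 counts in every library. Names of 549 entries matched the RefSeq miRNA table (GRCm38.p6).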

Additional observations from a re-analysis of the deposited data

How the results depend on the processing

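The count of family members called at an adjusted p under 0.05 stayed at 0 in all 5 comparisons under every alternative run, where DESeq2 gave no adjusted p for mmu-miR-15b-5p and mmu-miR-497a-5p. mmu-miR-497a-5p had 0 counts in CON, DFO and VE and could not be called between those groups. DESeq2 put 1 member, mmu-miR-16-5p, past the 1.5-fold rule in VE against FAC. The difference of mmu-miR-15b-5p between VE and FAC turned to -1.31 with library read totals and to -0.91 with the replicate block, and ran from -4.47 to 1.11 when 1 library was left out. That of mmu-miR-16-5p between DFO and FAC ran from -5.63 to 0.63. No other direction changed among mmu-miR-15b-5p and mmu-miR-16-5p. Library read totals also moved mmu-miR-15b-5p and mmu-miR-16-5p to 6.46 and 6.33 in FAC against CON and to -7.27 and -2.03 in DFO against FAC, mmu-miR-16-5p to 4.30 in DFO against CON, and mmu-miR-15b-5p to 5.16 in VE against CON. No value was given where the only library over the floor was left out. Library read totals moved the median difference of all tested entries to 4.35 in FAC against CON, -1.88 in DFO against FAC and in VE against FAC, 1.45 in DFO against CON and 0.99 in VE against CON.

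The number of all entries called moved more, and the cause was not tested. In FAC against CON it was 1, and 16 with RLE factors, 2 with total counts, 89 with library read totals, 21 with DESeq2, 2 with the replicate block and 0 to 17 with 1 library left out. In DFO against FAC it was 5, and 12, 15, 43 and 3 with RLE factors, library read totals, DESeq2 and the replicate block, and 2 to 26 with 1 library left out. In VE against FAC it was 2, and 5, 6, 19 and 4 with RLE factors, library read totals, DESeq2 and no filter, and 0 to 9 with 1 library left out. In DFO against CON it was 3, and 0, 17, 13 and 0 with total counts, library read totals, DESeq2 and the replicate block, and 0 to 2 with 1 library left out. In VE against CON it was 11, and 19 and 2 with DESeq2 and the replicate block, and 2 to 10 with 1 library left out. The deviations of same-numbered libraries of different groups had correlations between -0.086 and 0.069, and those of differently numbered ones between -0.101 and 0.088. The labels do not say whether same-numbered libraries shared a culture or animal, and these correlations cannot decide it. Depth limits the low members most in CON, where 3 counts were up to 7.9 CPM.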
